A study of Mus musculus with 2 samples.

Results

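The major histocompatibility region of the mouse lies on chromosome 17. Of the 146191 chromatin accessibility peaks measured in 1 tissue sample of mouse small intestine, 555 fall into it. The members are the peaks on chromosome 17 (build mm10) that start from 33.8 to 38.5 Mb. Each peak was given to the section of its nearest gene start: 47 peaks to the H2-K and extended class II section (gene starts before H2-Oa), 103 to the class II section (H2-Oa up to Notch4), 129 to the class III section (Notch4 up to H2-D1) and 276 to the class I section (H2-D1 onwards). The first member starts at 33801941 and holds 253 fragments over the kept cells, and the nearest peak before it ends at 33798935 and holds 195. The last member ends at 37559799 and holds 71 fragments, and the next peak of the chromosome starts at 39846782 and holds 15357.

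The data came from TrnA-mutant mouse small intestine, labelled 55 weeks old, with a mutation load of 73%. RNA and open chromatin were read in the same cells (10x Multiome with enrichment of mitochondrial DNA), so there were 2 libraries, 1 of RNA and 1 of ATAC, that share all 12363 barcodes. The epithelium was freed with EDTA, digested with TrypLE, stained for CD45, CD31, TER-119, CD326 and DAPI, and sorted, with gates that the labels do not state. Strain, sex and the number of animals behind the tube are not in the labels either, and control animals were not analysed here. With 1 tissue sample there is no replicate. No difference between cell classes has a replicate check, and no p-value is given. Every interval is an exact 95% interval that covers counting error only.

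Genes of this region decide what a cell shows to T cells. Class I molecules, built of a heavy chain and beta-2 microglobulin, carry peptides cut by the proteasome and pumped into the endoplasmic reticulum by the Tap transporter, and nearly all cells make them. Class II molecules, built of an alpha and a beta chain, are loaded with the help of H2-DM and are made by antigen-presenting cells and, in the small intestine, also by epithelium. Class II promoters carry an X and a Y box that the regulatory factor X complex and NF-Y bind and that the co-activator Ciita needs, and interferon gamma raises both classes. Between the class II and class III genes lies a cluster of butyrophilin-like (Btnl) genes, whose products on enterocytes support the gamma delta intraepithelial T cells of the gut.

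Promoters of the listed genes were read for the letters of these motifs. RefSeq promoters (build GRCm38.p6, which has the coordinates of mm10, 250 bases before to 50 after the RefSeq start) were matched by symbol for 75 of the 108 listed genes of the region. They were searched on both strands for ACNGATG (the X1 core, in 9.85% of all 32851 RefSeq promoters), ATTGG (the Y box, 37.4%), AANNGAAA (the core of interferon response elements, 23.9%) and GGGANTTCC (a kappaB-like core, 1.68%). The following 6 promoters belong to genes that the results turn on, with X1, Y box and interferon core matches in capitals and each on the strand of its gene.
H2-Eb1, chr17:34305617-34305916, plus strand: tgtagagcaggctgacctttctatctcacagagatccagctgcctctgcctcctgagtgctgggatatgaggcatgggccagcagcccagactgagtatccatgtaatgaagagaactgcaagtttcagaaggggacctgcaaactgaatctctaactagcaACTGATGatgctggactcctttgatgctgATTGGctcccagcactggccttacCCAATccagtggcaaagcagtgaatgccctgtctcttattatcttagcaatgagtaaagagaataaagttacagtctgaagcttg
H2-DMb1, chr17:34152941-34153240, plus strand: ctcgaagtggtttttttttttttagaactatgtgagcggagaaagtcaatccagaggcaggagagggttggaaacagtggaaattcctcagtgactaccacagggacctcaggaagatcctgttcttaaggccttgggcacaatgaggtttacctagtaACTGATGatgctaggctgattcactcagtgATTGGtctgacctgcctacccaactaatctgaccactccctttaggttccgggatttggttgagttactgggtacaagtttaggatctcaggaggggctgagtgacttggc
H2-Aa, chr17:34287774-34288073, minus strand: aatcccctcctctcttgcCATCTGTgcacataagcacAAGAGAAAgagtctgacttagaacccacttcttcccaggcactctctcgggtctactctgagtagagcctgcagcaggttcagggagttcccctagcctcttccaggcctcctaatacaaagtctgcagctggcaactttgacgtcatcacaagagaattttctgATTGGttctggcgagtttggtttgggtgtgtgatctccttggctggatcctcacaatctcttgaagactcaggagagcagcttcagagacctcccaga
H2-D1, chr17:35262844-35263143, plus strand: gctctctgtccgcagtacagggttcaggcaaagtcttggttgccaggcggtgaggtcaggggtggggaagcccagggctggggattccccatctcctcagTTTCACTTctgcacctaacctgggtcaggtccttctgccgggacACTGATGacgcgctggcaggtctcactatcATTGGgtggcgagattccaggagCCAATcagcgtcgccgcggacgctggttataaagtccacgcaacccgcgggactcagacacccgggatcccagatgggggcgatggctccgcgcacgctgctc
Btnl2, chr17:34354572-34354871, plus strand: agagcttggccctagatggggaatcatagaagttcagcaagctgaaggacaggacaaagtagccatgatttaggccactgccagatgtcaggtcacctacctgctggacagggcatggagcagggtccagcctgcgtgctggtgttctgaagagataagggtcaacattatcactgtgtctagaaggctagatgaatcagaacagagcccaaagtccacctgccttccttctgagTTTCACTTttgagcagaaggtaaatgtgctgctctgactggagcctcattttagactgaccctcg
Btnl6, chr17:34517303-34517602, minus strand: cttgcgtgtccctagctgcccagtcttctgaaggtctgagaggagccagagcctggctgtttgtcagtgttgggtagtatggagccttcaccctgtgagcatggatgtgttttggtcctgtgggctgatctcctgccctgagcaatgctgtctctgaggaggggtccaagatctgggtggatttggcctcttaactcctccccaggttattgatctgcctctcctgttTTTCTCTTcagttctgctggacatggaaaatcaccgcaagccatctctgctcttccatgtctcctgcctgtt

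In H2-Eb1 the X1 core begins 88 bases before the start, followed by Y box letters at 59 and 35 bases before it. In H2-DMb1 they begin 91 and 61 bases before the start. H2-Aa has its Y box letters at 48 bases before the start, an X1 core match farther off at 232 and interferon core letters at 213. H2-D1, a class I gene, has interferon core letters at 150, an X1 core at 106 and Y box letters at 76 and 53 bases before the start. Neither Btnl2 nor Btnl6 has an X1 or Y box match, and both have interferon core letters, 15 and 22 bases before the start. Over the lists, X1 letters stood in 6 of 8 promoters of class II chains and chaperones, 8 of 12 of the class I M genes, 1 of 4 of the Btnl genes and 0 of 18 of widely expressed neighbours. Y box letters stood in 7 of 8, 11 of 12, 1 of 4 and 7 of 18 of them. A match is a description of letters, not of a bound site.

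Cells were clustered on RNA without mitochondrial genes, genes of the window or listed genes, and clusters were named from marker genes. Of 9872 kept cells, 3252 were enterocyte-like (the absorptive cells), 2117 crypt progenitor-like, 1516 goblet-like (mucus-secreting), 251 Paneth-like (antimicrobial cells of the crypt base), 215 enteroendocrine-like, 106 tuft-like and 27 T or intraepithelial lymphocyte-like, and 2388 stayed unnamed. A kept cell had a median of 5591 unique molecules of RNA (UMIs), 1547 of them nuclear-encoded, and of 12884.5 peak counts. The nuclear-encoded share of UMIs was 21.8% in enterocyte-like cells against 43.2% in crypt progenitor-like, 46.5% in goblet-like and 59.7% in Paneth-like cells, so RNA levels are given as counts per 1000000 nuclear-encoded UMIs of the class (CPM). Accessibility is given as fragments per 1000000 fragments in all peaks of the class (FPM). A peak or gene was called when the 2 classes differed by at least 1.5-fold, the 95% counting interval of the ratio left out no change and both classes together held at least 20 counts. Enterocyte marker RNA, summed over 13 genes, stood in the other epithelial classes at 9.24% (tuft-like) to 20.3% (goblet-like) of its enterocyte-like level, so a level near those shares cannot be told apart from RNA shed by enterocytes.

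Peaks of the region were deep and close to gene starts. A member held a median of 450 fragments over the kept cells against 240 for peaks elsewhere, with a range from 27 to 41289. Of the 555 members, 223 (40.2%) lay within 1000 bases of a gene start, here called promoter peaks, against 14.9% of the other peaks. The class II section was the most densely covered, with 22.1 peaks per 100 kb, followed by class III with 18.5, the H2-K section with 16.4 and class I with 12. The files list 394 genes in the window, of which 137 had at least 20 UMIs over the kept cells: 21 of 38 in the H2-K section, 19 of 35 in class II, 40 of 89 in class III and 57 of 232 in class I. In the class I section, 58 olfactory receptor genes had at most 1 UMI each, 50 of them 0, and 11 peaks lay nearest to such a gene.

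Crypt progenitor-like cells differed from enterocyte-like cells section by section. Of 553 members tested, 156 (28.2%) were higher and 112 (20.3%) lower in crypt progenitor-like cells, where 33.3% of all peaks tested were higher and 23.6% lower. In the class II section the split turned: 13 of 103 peaks were higher and 32 (31.1%) lower, with a median log2 ratio of -0.25 against 0.24 over all peaks. In the class III section 46 of 129 peaks (35.7%) were higher and 12 (9.30%) lower, with a median of 0.44. Over all promoter peaks of the genome 35.6% were higher and 9.74% lower, so the split of the class III section was close to that of promoter peaks in general. Of 275 tested class I peaks 88 were higher and 64 lower, and of 46 in the H2-K section 9 were higher and 4 lower. On a scale of fragments in promoter peaks the region had 133 higher and 131 lower. The median of all peaks stood at 0.09 on that scale, and shares of all peaks called were not counted on it.

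**Figure D1:**
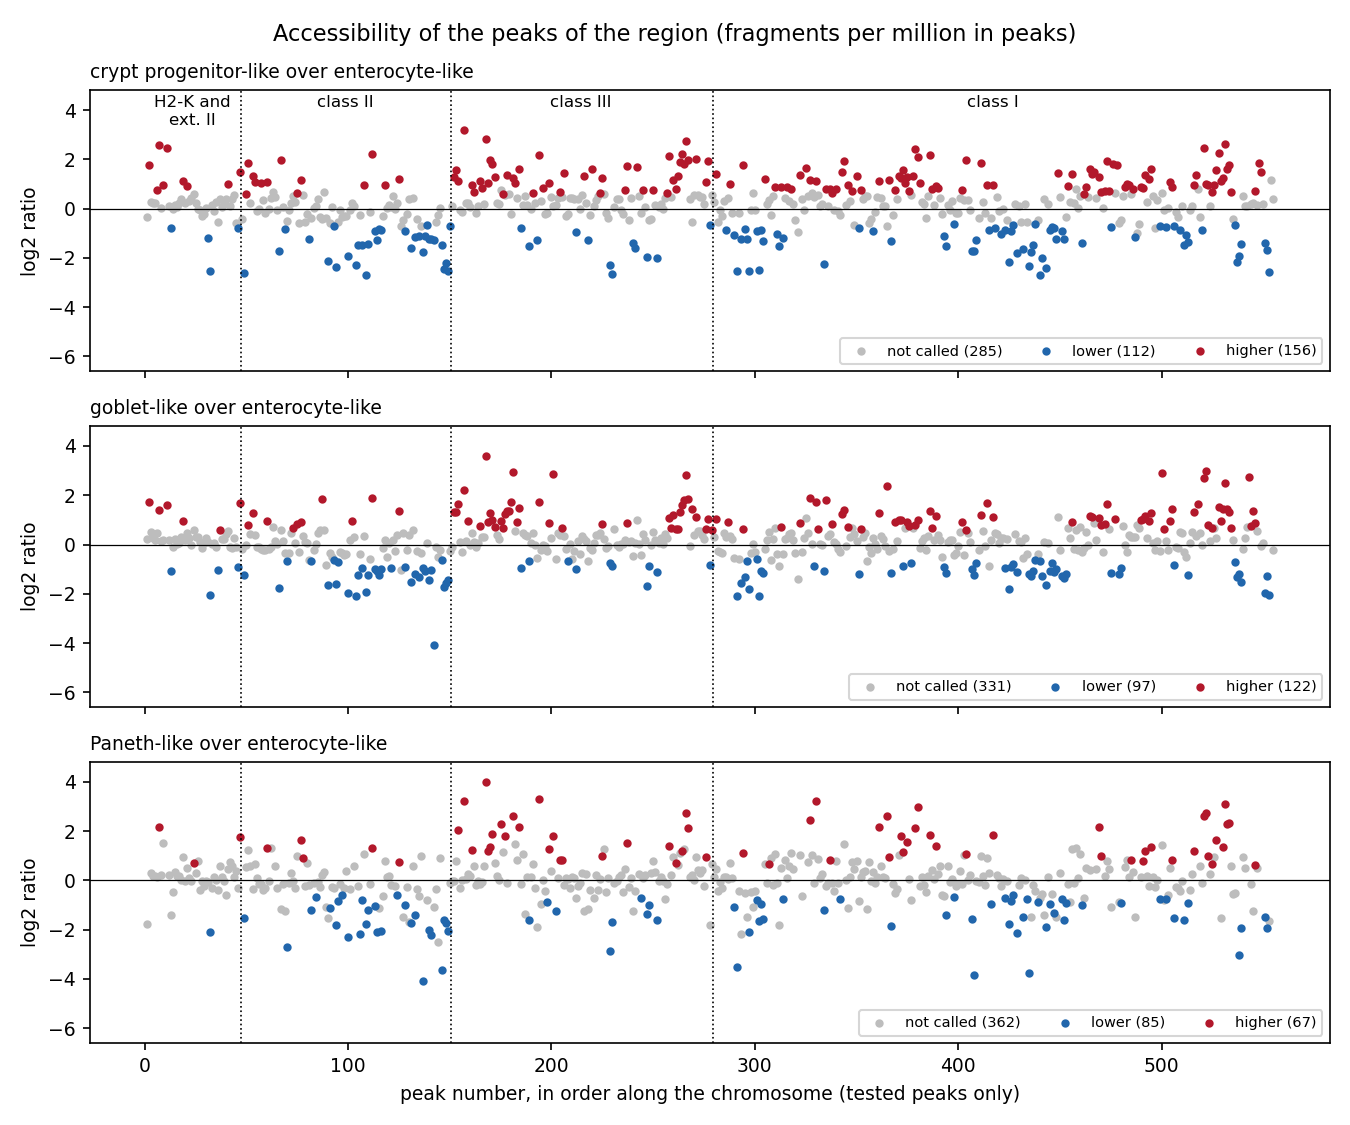
Log2 ratio of accessibility over enterocyte-like cells (vertical axis) of the tested peaks with a finite ratio, in their order along the chromosome (horizontal axis, peak number), 1 point a peak and 1 panel each for crypt progenitor-like, goblet-like and Paneth-like cells, with dotted lines between the 4 sections. Points are red where called higher (156, 122 and 67), blue where called lower (112, 97 and 85) and grey where not called. In the crypt progenitor-like panel the class II section holds 32 blue and 13 red points and the class III section 12 blue and 46 red.

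In goblet-like and Paneth-like cells the class II section again held more peaks lower than higher, and the class III section more higher than lower. In goblet-like cells 122 of 550 members were higher and 97 lower than in enterocyte-like cells, against 27.4% higher and 20.3% lower of all peaks, and on the promoter-peak scale 92 were higher and 115 lower. In the class II section 10 of 103 were higher and 32 lower, and in class III 41 of 129 were higher and 10 lower. In Paneth-like cells 67 of 514 members were higher and 85 lower, against 19.6% and 16.8% of all peaks, and on the promoter-peak scale 49 were higher and 106 lower. There 5 of 99 class II peaks were higher and 30 lower, and 24 of 124 class III peaks were higher and 9 lower. On the promoter-peak scale the median of all peaks stood at 0.04 in goblet-like and -0.12 in Paneth-like cells. These comparisons share the enterocyte-like cells and are not independent of one another.

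Summed over all its peaks, the class II section held 1083 FPM in enterocyte-like cells. It held 875 in crypt progenitor-like cells (log2 ratio -0.31, 95% counting interval -0.33 to -0.28), 865 in goblet-like (-0.32), 800 in Paneth-like (-0.44), 813 in enteroendocrine-like (-0.41) and 790 in tuft-like cells (-0.45). Enterocyte-like cells were the highest class, and the other classes lay within 790 to 875. The class III sum was higher in crypt progenitor-like, goblet-like and Paneth-like cells, by 0.24, 0.17 and 0.14 on the log2 scale, and the H2-K sum by 0.18, 0.18 and 0.17. These sums lay near the median of all peaks, which stood at 0.24, 0.19 and 0.05. On the promoter-peak scale the class III differences were 0.09, 0.02 and -0.03 and those of H2-K 0.03, 0.04 and 0.0021, so that neither section stood clearly higher there.

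Scaled to nuclear-encoded UMIs, genes of the region were more often lower than higher outside enterocyte-like cells. Of 122 genes of the window tested, 27 were higher and 46 lower in crypt progenitor-like cells, where 43.7% of all nuclear genes tested were higher and 19.9% lower. In goblet-like cells 13 of 113 were higher and 37 lower, against 29.7% and 17.2% of all genes, and in Paneth-like cells 6 of 98 were higher and 49 lower, against 21.5% and 28.8%. On a scale of UMIs of all kinds, mitochondrial ones included, the splits were 66 higher and 32 lower, 72 and 18, and 42 and 22. That scale moved all genes up by 0.99, 1.10 and 1.46 on the log2 scale in the crypt progenitor-like, goblet-like and Paneth-like comparisons. The median of all tested genes stood at 1.47, 1.3 and 1.31 on it. Shares of all genes called were not counted on it, so these splits have no background beside them. On the nuclear scale the median of all tested genes stood at 0.48, 0.20 and -0.14, and those are the levels to read the following changes against. In the class II section 0 genes were higher and 14 of 18 lower in crypt progenitor-like cells, 1 higher and 15 of 18 lower in goblet-like, and 0 higher and 17 of 17 lower in Paneth-like cells. With UMIs of all kinds as the scale, 11, 9 and 10 of them were lower.

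The class II chain genes were most abundant in enterocyte-like cells and several-fold lower in all other epithelial classes. In the list of chains and chaperones 5 genes had at least 20 UMIs, and their sum fell from 711 CPM in enterocyte-like cells to 143 in crypt progenitor-like cells, a log2 change of -2.32 (95% counting interval -2.42 to -2.21) or 4.98-fold. The sum was 183 in goblet-like (-1.96), 127 in Paneth-like (-2.48), 92.6 in enteroendocrine-like (-2.94) and 99.0 in tuft-like cells (-2.84). On the scale of UMIs of all kinds the change was -1.33, -0.86 and -1.03 in the first 3 of these classes. The lower classes stood at 13% to 25.8% of the enterocyte-like level, beside the 9.24% to 20.3% of the enterocyte markers, and the part of shed RNA in them was not tested.

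H2-Aa, the alpha chain of the A molecule, was at 258 CPM (243 to 274) in enterocyte-like cells, 41.2 (36.5 to 46.4) in crypt progenitor-like, 63.4 in goblet-like, 36.8 in Paneth-like, 28.0 in enteroendocrine-like and 33 in tuft-like cells. Its beta chain partner H2-Ab1 was at 283 in enterocyte-like and 51.2 in crypt progenitor-like cells, 76.8 in goblet-like and 51.6 in Paneth-like cells. H2-Eb1, the beta chain of the E molecule, was at 113 in enterocyte-like cells against 27, 23.8 and 16.8 in the same 3 classes. The log2 changes of H2-Aa, H2-Ab1 and H2-Eb1 in crypt progenitor-like cells were -2.65, -2.46 and -2.07. H2-DMb1, a chain of the peptide-loading chaperone, was at 36.4 in enterocyte-like and 8.81 in crypt progenitor-like cells (-2.05). The other chain of that chaperone, H2-DMa, was at 20.4 and 14.3 (-0.51) and was not called there, but was lower in goblet-like (8.94, -1.19) and Paneth-like cells (7.37, -1.47). H2-Ea, the alpha chain that pairs with H2-Eb1, had 0 UMIs in all kept cells, as had H2-Eb2 and H2-DMb2, which allows up to 3 UMIs each. H2-Oa and H2-Ob, chains of a modulator of H2-DM, had 1 UMI each.

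Promoter peaks of the same 5 genes differed far less than their RNA. Their sum was 122 FPM in enterocyte-like and 120 in crypt progenitor-like cells, a log2 difference of -0.02 with a 95% counting interval of -0.09 to 0.05, and of -0.17 on the promoter-peak scale. In goblet-like cells it was 105 (-0.21, -0.29 to -0.13) and in Paneth-like cells 103 (-0.24, -0.43 to -0.06), in the direction of the RNA. On the promoter-peak scale these differences were -0.35 and -0.41. The sum was 110 in enteroendocrine-like and 105 in tuft-like cells. At the start of H2-Aa, the peak chr17:34287436-34288344, which spans the sequence printed above, held 18.7 FPM (16.9 to 20.6) in enterocyte-like and 19.6 (18.0 to 21.3) in crypt progenitor-like cells, with 13.2 in goblet-like and 15.5 in Paneth-like cells. The peak at H2-Ab1, chr17:34262785-34263667, held 16.9 in enterocyte-like cells, against 18.4 in crypt progenitor-like, 17.4 in goblet-like and 10.7 in Paneth-like cells. The last of these was called lower (-0.66). At H2-Eb1, chr17:34305559-34306311 held 21.9, 17.8, 16.2 and 17.5 in the same order, and at H2-DMb1 the 4 values lay between 13.9 and 15.7. The peak at H2-DMa lay between 43.7 and 48.7.

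Peaks away from the starts of the class II genes included some that were several-fold lower outside enterocyte-like cells. The peak chr17:34292286-34293101, 4495 bases from the start of H2-Aa, held 22.1 FPM (20.2 to 24.1) in enterocyte-like against 4.26 (3.54 to 5.09) in crypt progenitor-like cells, a log2 change of -2.38. It held 7.32 in goblet-like, 6.35 in Paneth-like, 5.32 in enteroendocrine-like and 4.61 in tuft-like cells. A peak 4458 bases from H2-Eb1 held 5.91 in enterocyte-like and 1.57 in crypt progenitor-like cells. At the proximal end of the section, chr17:34096261-34097160, 979 bases from the start of BC051537, held 20.8 in enterocyte-like cells, against 3.42 in crypt progenitor-like, 8.88 in goblet-like and 7.15 in Paneth-like cells. The stretch of class II genes, a part drawn after the values were seen, has 59 peaks. Their sum was 632 in enterocyte-like cells, against 603 (-0.07) in crypt progenitor-like, 571 in goblet-like (-0.15) and 550 in Paneth-like cells (-0.20). In crypt progenitor-like cells 9 of these peaks were higher and 10 lower. Of all peaks tested there, 33.3% were higher and 23.6% lower.

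The Btnl stretch of the section differed in accessibility as well as in RNA. Its 44 peaks, likewise set apart after the values were seen, held 451 FPM in enterocyte-like cells, 272 in crypt progenitor-like (-0.73), 294 in goblet-like (-0.62), 249 in Paneth-like (-0.85), 207 in enteroendocrine-like (-1.12) and 237 in tuft-like cells (-0.93). In crypt progenitor-like cells 4 of 44 peaks were higher and 22 lower, in goblet-like cells 2 and 21, and in Paneth-like cells 2 and 18 of 42. Shares over all peaks tested were 33.3% higher and 23.6% lower, 27.4% and 20.3%, and 19.6% and 16.8% in the same order. Among the 12 promoter peaks of the stretch, 1 was higher and 8 were lower in crypt progenitor-like cells, where among 17 promoter peaks of the class II genes 2 were higher and 1 was lower. Over all promoter peaks tested, 35.6% were higher and 9.74% lower there.

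**Figure D2:**
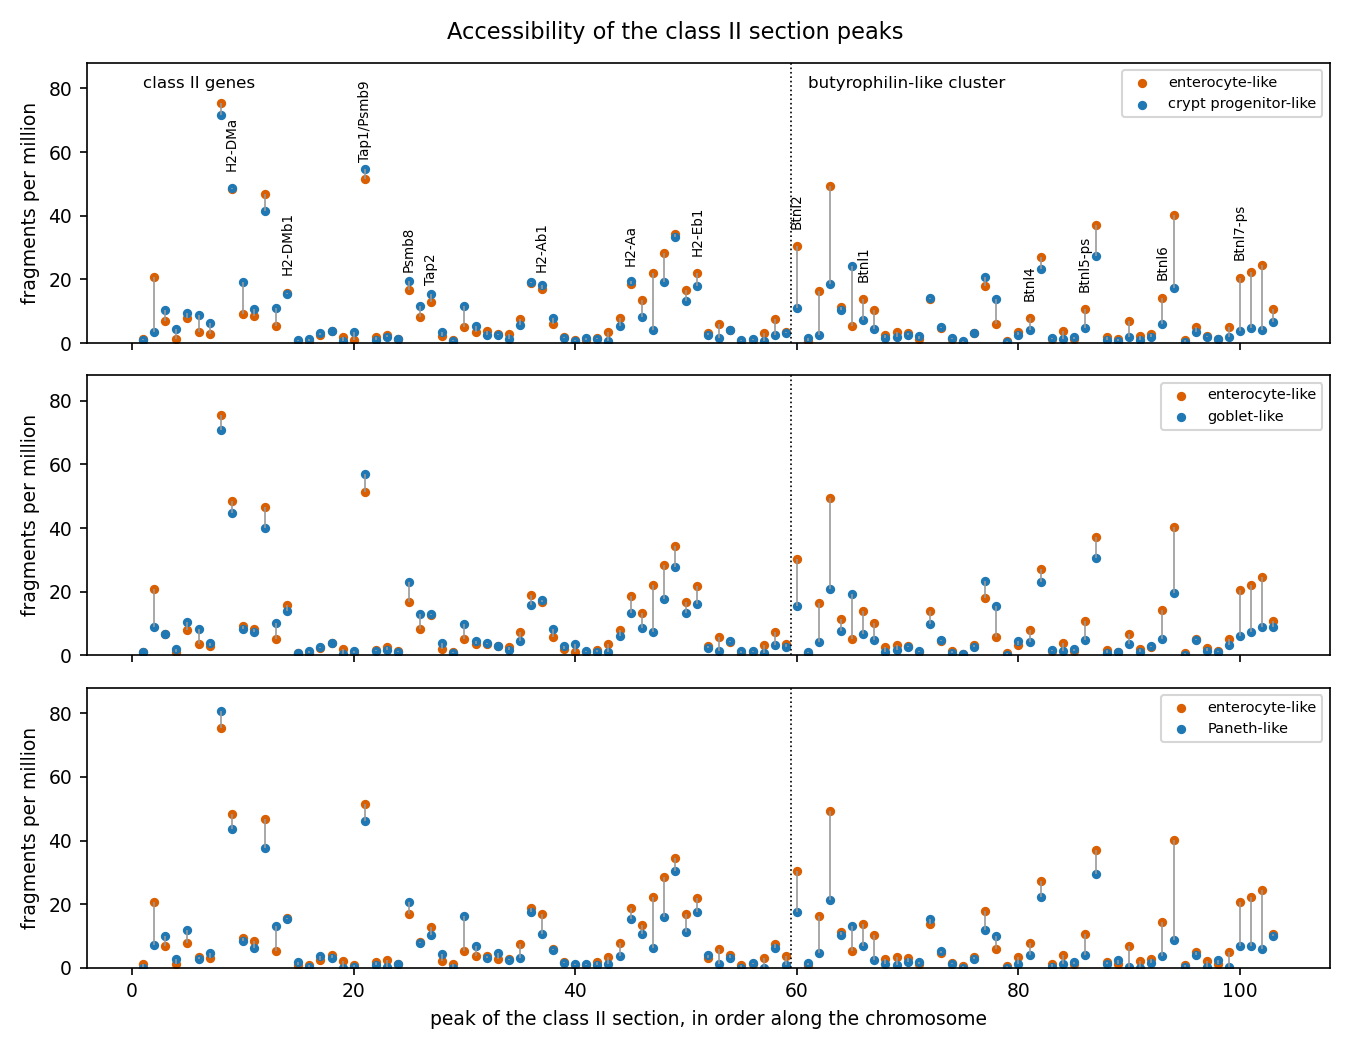
Accessibility (vertical axis, FPM) of the 103 peaks of the class II section in their order along the chromosome (horizontal axis, peak rank), enterocyte-like cells in orange and, in 1 panel each, crypt progenitor-like, goblet-like and Paneth-like cells in blue, with a grey line joining the values of a peak. Left of the dotted line, over the class II genes, the crypt progenitor-like sum was 603 against 632 in enterocyte-like cells, and right of it, over the Btnl genes, 272 against 451.

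RNA of the 6 Btnl genes summed to 840 CPM in enterocyte-like cells, 151 in crypt progenitor-like (-2.47), 242 in goblet-like (-1.80), 103 in Paneth-like (-3.03), 140 in enteroendocrine-like (-2.59) and 109 in tuft-like cells (-2.95). All 6 were lower in crypt progenitor-like, goblet-like and Paneth-like cells, and on the scale of UMIs of all kinds 5, 4 and 6 of them were. Of all nuclear genes tested, 19.9%, 17.2% and 28.8% were lower on the nuclear scale in the same order. Btnl2 was at 198 CPM in enterocyte-like cells, 23.2 in crypt progenitor-like, 39.6 in goblet-like, 16.8 in Paneth-like, 24.5 in enteroendocrine-like and 13.2 in tuft-like cells. Btnl1 and Btnl6, whose products pair on the enterocyte surface, were at 136 and 119 in enterocyte-like and 32.7 and 15.2 in crypt progenitor-like cells. Btnl4 changed least, from 96.0 to 41.2 (-1.22), with 58.9 in goblet-like cells (-0.70). Among the 6 are 2 genes annotated as pseudogenes: Btnl7-ps went from 168 to 10.8 (-3.96) and Btnl5-ps from 124 to 28.1 (-2.14). These genes are similar copies of each other, how shared reads were counted is not given in the sources used here, and their single values are uncertain to that extent.

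The start peaks of the 6 Btnl genes summed to 97.7 FPM in enterocyte-like and 37.1 in crypt progenitor-like cells (-1.40), with 42.8 in goblet-like (-1.19), 42.5 in Paneth-like (-1.20), 24.7 in enteroendocrine-like (-1.99) and 29.5 in tuft-like cells (-1.73). The Btnl2 peak, chr17:34354397-34355264, held 30.5 (28.2 to 32.8) in enterocyte-like cells, against 10.9 (9.72 to 12.2) in crypt progenitor-like, 15.6 in goblet-like, 17.5 in Paneth-like, 5.80 in enteroendocrine-like and 9.22 in tuft-like cells. At Btnl7-ps the peak held 20.6 in enterocyte-like against 3.77 in crypt progenitor-like cells, and at Btnl6 14.3 against 6.04. The peak chr17:34370330-34371216, 5916 bases from Btnl1, held 49.4 in enterocyte-like cells and 18.5, 21.0 and 21.4 in crypt progenitor-like, goblet-like and Paneth-like cells. One peak of the same stretch went the other way: chr17:34372962-34373800, 3332 bases from Btnl1, held 5.25 in enterocyte-like against 24.3 in crypt progenitor-like, 19.4 in goblet-like, 13.1 in Paneth-like, 25.2 in enteroendocrine-like and 10.15 in tuft-like cells. The non-promoter peaks of this stretch and of the class II genes named here were picked after their values were seen.

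Genes that supply peptides to class I molecules were also highest in enterocyte-like cells in sum. Summed over Tap1, Tap2, Psmb8, Psmb9 and Tapbp, RNA was 325 CPM in enterocyte-like cells, 141 in crypt progenitor-like (-1.21), 220 in goblet-like (-0.56) and 90.5 in Paneth-like cells (-1.84). On the scale of UMIs of all kinds 1 of the 5 was lower and 1 higher in crypt progenitor-like cells. In goblet-like cells 0 were lower and 2 higher on it, and in Paneth-like cells 0 were lower, so most of their calls rest on the scale. The median of all tested genes stood on it at 1.47, 1.3 and 1.31 in crypt progenitor-like, goblet-like and Paneth-like cells. Tap2 was lower on both scales in crypt progenitor-like cells, at -2.26 on the nuclear one and -1.27 on the other. Psmb8 differed by -1.09 and -0.10 in the same cells. Tapbp, which holds class I molecules to the transporter, was at 155, 63.5, 119 and 45.2 in enterocyte-like, crypt progenitor-like, goblet-like and Paneth-like cells. Tap1, a chain of the transporter, was at 47.2, 17.8, 23 and 12.6. Psmb9, a subunit of the immunoproteasome, was at 35.3 and 29.0 in enterocyte-like and crypt progenitor-like cells and was not called there (-0.28). Tap1 and Psmb9 share 1 start peak, which held 51.4, 54.6, 57.0 and 46.0 in the 4 classes. The promoter peaks of the list differed in sum by 0.17 and 0.16 on the log2 scale in crypt progenitor-like and goblet-like cells, less than the median of all peaks, and by 0.03 and 0.02 on the promoter-peak scale.

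The classical class I genes, whose products are on nearly all cells, were also highest in enterocyte-like cells. H2-K1 was at 908 CPM in enterocyte-like cells, against 234 (-1.96) in crypt progenitor-like, 447 in goblet-like (-1.02), 275 in Paneth-like (-1.72), 218 in enteroendocrine-like and 307 in tuft-like cells. H2-D1 was at 296, 79.2 (-1.90), 153 (-0.95), 106 (-1.48), 105 and 198 in the same order. On the scale of UMIs of all kinds both were lower in crypt progenitor-like cells and neither in goblet-like or Paneth-like cells. The H2-K1 start peak held 50.0, 47.4, 51.9 and 54.4 in enterocyte-like, crypt progenitor-like, goblet-like and Paneth-like cells. The H2-D1 start peak, over the printed sequence, held 61.6, 42.9, 52.0 and 45.7, and was not called in any of the 3 comparisons.

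Among the Q genes, class I genes of more restricted expression next to H2-D1, H2-Q1, H2-Q2 and H2-Q4 were lower in each of the 3 comparisons. H2-Q2 was at 268 CPM in enterocyte-like cells and 45.0, 85.9 and 56.8 in crypt progenitor-like, goblet-like and Paneth-like cells. H2-Q1 was at 60.7 against 5.53, 8.94 and 7.37. H2-Q4 was at 38.3 and 18.1 in the first pair (-1.08). RNA of H2-Q6, H2-Q7 and H2-Q10 was not called in crypt progenitor-like cells. On the scale of UMIs of all kinds 2, 1 and 2 Q genes were lower in them. At H2-Q1 the start peak went with the RNA, at 23.5 in enterocyte-like against 13.1 in crypt progenitor-like and 9.48 in goblet-like cells, while at H2-Q2 it held 32.8 and 31.6 in the first pair. At H2-Q6 the start peak was lower in crypt progenitor-like cells, at 20.9 against 9.22. Class I genes of the Q and T groups are near-identical in stretches, so their RNA and their peaks may share reads.

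The T genes, which include nonclassical class I molecules of the gut epithelium, differed among themselves. H2-T3, the thymus leukemia antigen, which binds the CD8 alpha homodimer of intraepithelial lymphocytes, was at 120 CPM in enterocyte-like cells, against 38.4 in crypt progenitor-like, 30.1 in goblet-like, 16.8 in Paneth-like, 14 in enteroendocrine-like and 19.8 in tuft-like cells. H2-Bl was at 117 in enterocyte-like and 8.96 in crypt progenitor-like cells (-3.70), with 19.9 in goblet-like and 7.37 in Paneth-like cells. H2-T23, whose product is seen by receptors of natural killer and T cells, was at 109 and 16.1 in the first pair (-2.76), but at 80.8 in goblet-like cells (-0.43), where it was not called. H2-T22, a ligand of some gamma delta T cells, was at 24.5, 6.9 and 24.6 in enterocyte-like, crypt progenitor-like and goblet-like cells (0.00 in the last comparison). With UMIs of all kinds as the scale, H2-T23 and H2-T22 were called higher in goblet-like cells (0.67 and 1.10). Both lay below the median of all tested genes there, which stood at 1.3 on that scale. The list had 2 lower and 2 higher in goblet-like cells on it, and 4 lower of 5 in crypt progenitor-like cells. In Paneth-like cells 3 of 4 were lower and 1 was higher. The median of all tested genes stood at 1.47 in crypt progenitor-like and 1.31 in Paneth-like cells. The start peak of H2-T3 held 45.0, 35.3, 19.4 and 23.8 in enterocyte-like, crypt progenitor-like, goblet-like and Paneth-like cells, and was called lower in goblet-like (-1.21) and Paneth-like cells (-0.92). At H2-Bl it held 41.8, 22.2, 22.1 and 23.4. At H2-T23 it lay between 14.1 and 15.9 in the same 4 classes, and at H2-T22 it held 25.9, 25.4 and 31.5 in the first 3.

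A single peak among the T genes held more fragments than any other member. The peak chr17:36231051-36231958, 1582 bases from the start of Gm18604, held 41289 fragments over the kept cells, and the next most read member, at the start of Rnf5, held 9441. In FPM it held 621 in enterocyte-like cells, against 240 in crypt progenitor-like, 508 in goblet-like, 309 in Paneth-like, 419 in enteroendocrine-like and 481 in tuft-like cells. The class I section summed to 3199 in enterocyte-like cells, against 2718 (-0.24) in crypt progenitor-like, 3045 in goblet-like (-0.07) and 2723 in Paneth-like cells (-0.23), and without this peak the differences were -0.06, -0.02 and -0.09. Over the whole region the differences were -0.07, -0.02 and -0.12 with it and 0.01, 0.00 and -0.05 without it. Within the class I section, parts drawn after the values were seen moved apart. Over 53 peaks around the T genes the differences were -0.89, -0.35 and -0.76 (-0.48, -0.43 and -0.51 without that peak), with 9 higher and 23 lower in crypt progenitor-like cells. The 48 peaks from H2-D1 through the Q genes gave -0.35, -0.31 and -0.40, with 11 higher and 14 lower in crypt progenitor-like cells. The 87 peaks between the Q and T genes gave 0.12 in crypt progenitor-like cells, with 32 higher and 10 lower. Of all peaks tested in that comparison, 33.3% were higher and 23.6% lower. Of the M genes at the far end of the section, H2-M3, which presents formylated peptides, was the 1 with at least 20 UMIs, and 9 of the 12 listed had 0.

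**Figure D3:**
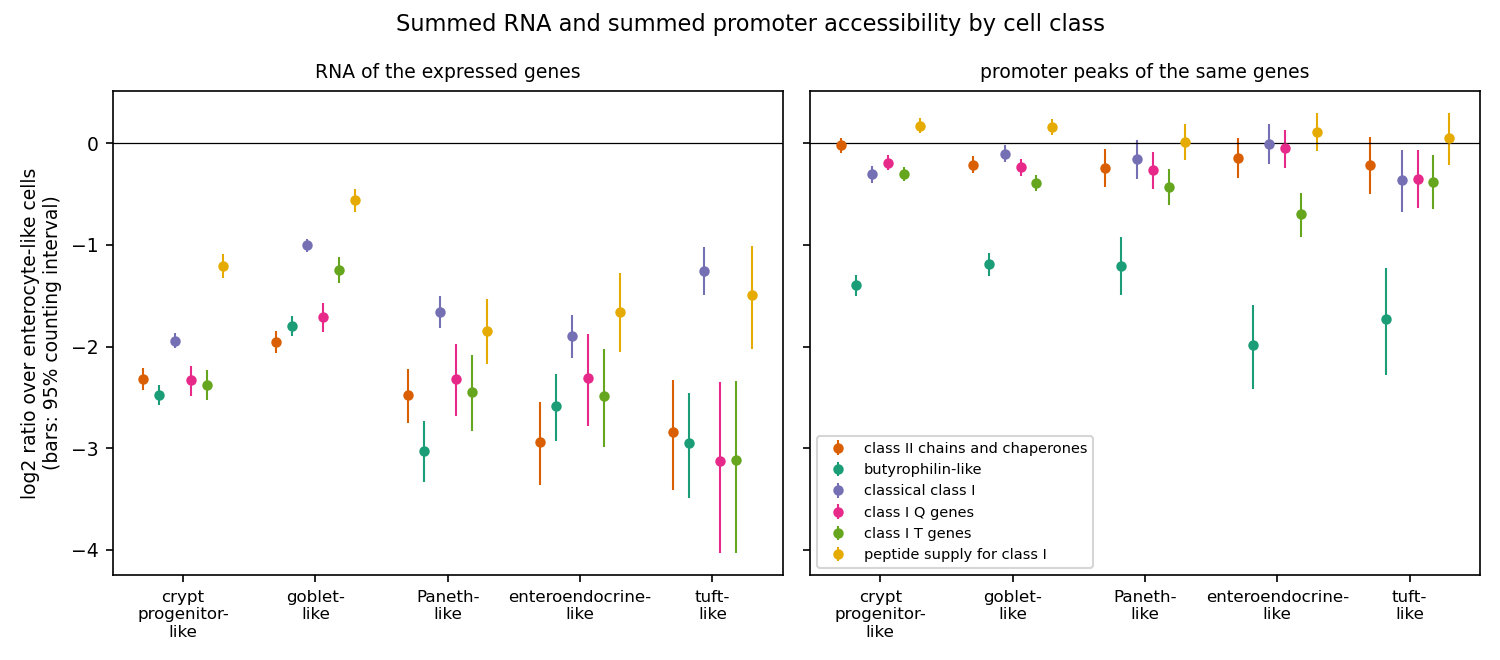
Log2 ratio over enterocyte-like cells (vertical axis) of the summed RNA (left) and the summed start peaks (right) of 6 gene lists in 5 other epithelial classes (horizontal axis), with 95% counting intervals as bars. RNA of the class II chains sits between -2.94 and -1.96, while their start peaks lie between -0.24 and -0.02, and the Btnl genes sit below -1 in both panels.

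The class III section and its surroundings hold many genes that nearly all cells use. Of 22 widely expressed neighbours, 7 were higher and 3 lower in RNA in crypt progenitor-like cells. Of all nuclear genes tested there, 43.7% were higher and 19.9% lower. On the scale of UMIs of all kinds 19 of the 22 were higher and 0 lower, with the median of all genes at 1.47. In Paneth-like cells 4 were higher and 4 lower, against 21.5% and 28.8% of all genes. On the scale of UMIs of all kinds 17 were higher and 0 lower there, with the median of all genes at 1.31. RNA of the list differed in sum by 0.45 in crypt progenitor-like, -0.02 in goblet-like and -0.17 in Paneth-like cells, near the median gene of each comparison. Vars, the valyl-tRNA synthetase, rose from 8.25 to 66 CPM (3.0), with 29.1 in goblet-like and 48.4 in Paneth-like cells, and its start peak rose with it, from 16.1 to 38.1 (1.24). Mdc1, a scaffold of the DNA damage response, was at 7.1 in enterocyte-like and 43.3 in crypt progenitor-like cells, Ddx39b, an RNA helicase, at 79.7 and 269, and Tubb5, a beta tubulin, at 58.7 and 178. The Tubb5 start peak went from 19.9 to 34.6 (0.80). The 18 start peaks of the list differed in sum by 0.11, 0.16 and 0.16 in the 3 classes, and by -0.03, 0.01 and -0.01 on the promoter-peak scale.

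Inflammatory genes of class III were low in RNA. Tnf was at 1.15 CPM in enterocyte-like and 4.03 in crypt progenitor-like cells, a called rise of 1.82, and its start peak held 2.8, 12.9, 8.43 and 6.35 in enterocyte-like, crypt progenitor-like, goblet-like and Paneth-like cells. Lta had 1 UMI and Ltb had 11 over all kept cells. Of 2 complement genes tested, Cfb, a factor of the alternative pathway, was lower in crypt progenitor-like cells, at 13.5 against 3.6. None of the 3 Hsp70 genes had enough UMIs to be tested, and Hspa1a and Hspa1b are near-identical copies.

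Epithelial genes among the neighbours were lower in crypt progenitor-like cells: 8 of 8 tested fell, as did 4 of 7 in goblet-like and 7 of 7 in Paneth-like cells. Of all nuclear genes tested, 19.9%, 17.2% and 28.8% were lower in the same order. With UMIs of all kinds as the scale, 5 were lower in crypt progenitor-like cells, 1 was lower and 3 higher in goblet-like cells, and 3 of 7 were lower in Paneth-like cells. Trim15, a ubiquitin ligase of the tripartite motif family, was at 47.9, 4.33, 44.9 and 4.21 CPM in enterocyte-like, crypt progenitor-like, goblet-like and Paneth-like cells. Its relatives Trim31 (196, 37.4, 151 and 37.9) and Trim40 (71.5, 13, 84.5 and 5.3) were likewise higher in enterocyte-like and goblet-like cells than in the other pair. Ubd, a ubiquitin-like modifier, was at 10.08, 1.34, 1.63 and 1.05. The Trim15 start peak went from 63.0 to 39.2 in crypt progenitor-like cells (-0.68) and the Ubd start peak from 3.02 to 1.12 (-1.44). At Slc44a4, a solute carrier of the choline transporter-like family, RNA fell from 134 to 27 (-2.31) while its start peak held 13.6 in enterocyte-like cells, against 19.1 in crypt progenitor-like, 21.5 in goblet-like and 23.8 in Paneth-like cells, called higher in the last 2 classes (0.67 and 0.81).

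The peaks with the largest ratios between crypt progenitor-like and enterocyte-like cells lay mostly away from gene starts. Among peaks with at least 50 fragments over both classes, the 8 with the largest rise went from 1.82 to 16.6 FPM (9.08-fold) at chr17:34576330-34577235 down to 0.40 to 1.92 near Zfp57. The second, near Egfl8, went from 1.42 to 10.23 and reached 22.6 in Paneth-like cells. The others lay 407 bases from the start of Lta (0.534 to 3.63), near Mog (0.845 to 5.27, with 22.2 in enteroendocrine-like cells), Ndufa7 (5.03 to 30.4), Ier3 (2.49 to 13.6) and at the start of Rnf39 (3.87 to 21.5). Of the 8 with the largest fall, 3 lay in the class II section: the peak near BC051537 given above and 2 in the Btnl stretch, which went from 16.4 to 2.55 and from 24.5 to 4.19. The remaining 5 lay near Gm10499 (7.25 to 1.12, 6.49-fold), Sapcd1 (37.3 to 6.01), Gm18734 (18.4 to 3.14), H2-Q1 (11.8 to 2.03) and AA388235 (6.89 to 1.19).

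Among genes outside the lists, Kifc1, a kinesin of the mitotic spindle, showed the largest rise, from 3.21 to 38.1 CPM (11.9-fold). It was followed by Egfl8 (0.458 to 4.18), Gm10501 (1.60 to 13.3), Tcf19 (2.06 to 14.3) and Cchcr1 (5.04 to 32.1). The largest falls were of 5 predicted genes: Gm11127 (13.7 to 1.05, 13.1-fold), Gm8909 (150 to 12.4), Gm7030 (30.5 to 2.54), Gm10499 (173 to 14.5) and Gm17782 (29.3 to 3.14). Predicted genes among the class I genes may share reads with their neighbours, and their values are uncertain for that reason.

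Set side by side gene by gene, fewer start peaks than RNAs were called, and most called start peaks had their RNA called too. Of 65 listed genes with at least 20 UMIs, 63 had a start peak. In crypt progenitor-like cells 61 of them could be tested in both, with RNA lower in 35 and higher in 7, and the peak lower in 11 and higher in 6. Both were called for 14, in the same direction for 13, the exception being Ddah2, a relative of the enzyme that breaks down methylated arginine. RNA was lower with the peak not called for 24 genes. Over all promoter peaks tested there, 35.6% were higher and 9.74% lower. Among all nuclear genes tested, 43.7% were higher and 19.9% lower. In goblet-like cells both were called for 12 of 56 and in the same direction for 11, and in Paneth-like cells for 13 of 54 and 12, with Slc44a4 as the exception in both. RNA and peaks differ in depth, and genes that share a start peak are counted singly.

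**Figure D4:**
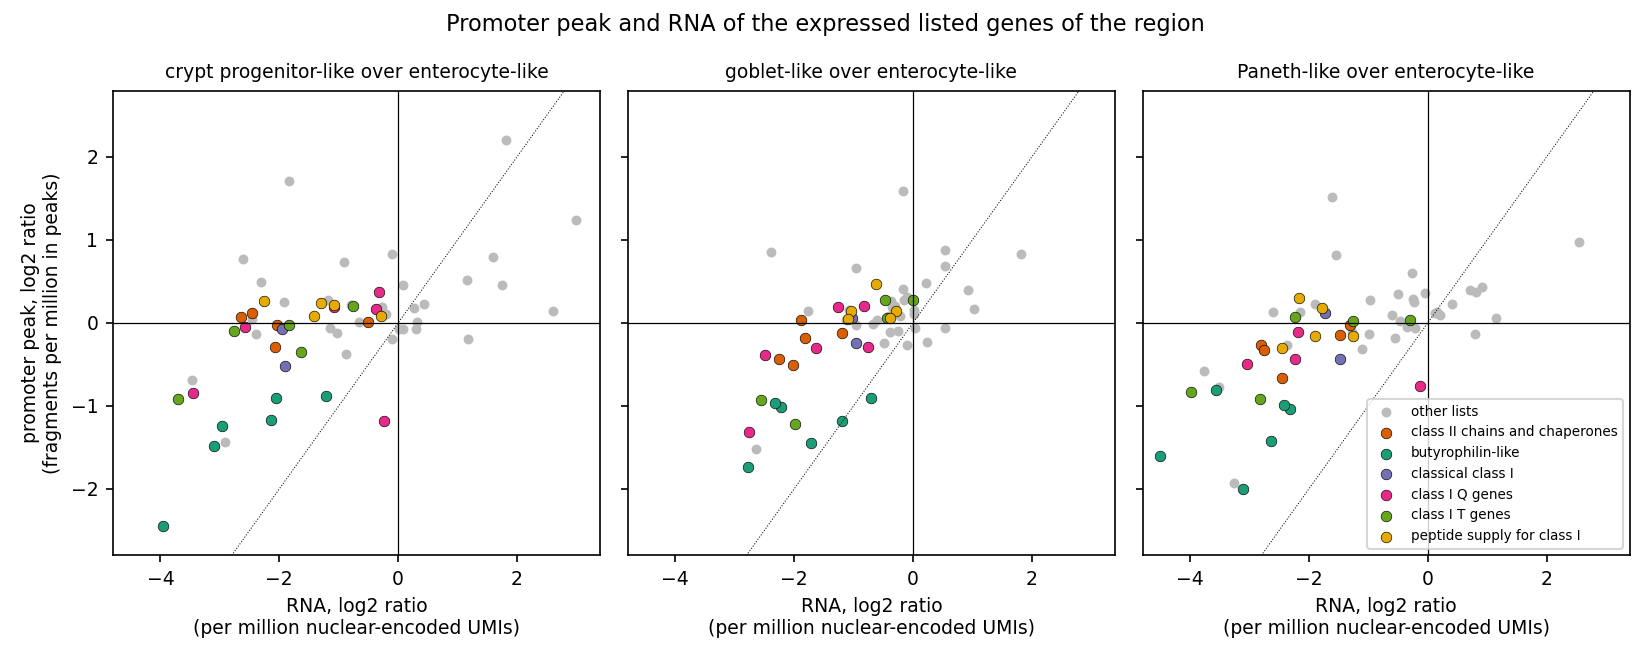
Log2 ratio of the start peak (vertical axis) against log2 ratio of RNA (horizontal axis) over enterocyte-like cells, 1 point a listed gene coloured by list, in 1 panel each for crypt progenitor-like, goblet-like and Paneth-like cells, with a dotted line where both ratios are equal. In the crypt progenitor-like panel the Btnl genes lie below 0 on both axes, and H2-Aa (RNA -2.65, peak 0.07) and H2-K1 (-1.96 and -0.08) lie far below 0 on the RNA axis alone.

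Enterocyte-like cells fell into 5 clusters, here called by a leading gene: Tmprss15 (1435 cells), Nt5e (627), Tmeff2 (531), Rbp2 (346) and Slc10a2 (313), the ileal bile acid transporter. RNA of the class II chains was lowest in the Tmprss15-led cluster, at 401 CPM, and stood at 526 in the Tmeff2-led, 542 in the Nt5e-led, 776 in the Rbp2-led and 1329 in the Slc10a2-led cluster. H2-Aa stood at 120, 197, 198, 281 and 515 in the same order. The Slc10a2-led cluster was 3.31-fold above the Tmprss15-led one in class II chain RNA (log2 1.73, 95% counting interval 1.58 to 1.88). Accessibility over the stretch of class II genes differed between the same 2 clusters by -0.01 (-0.08 to 0.06), with 653 and 657 FPM, and the start peaks of the chains by -0.29. Btnl RNA went the other way, by -0.51, with no difference in the sum of start peaks (0.00). Btnl2 was at 298 in the Tmprss15-led and 136 in the Slc10a2-led cluster, and H2-Bl at 219 and 45.6. H2-T3 stood apart in the Nt5e-led cluster, at 37.9 against 119 to 146 in the other clusters, and its start peak held 24.9 there against 39.1 to 52.0. The most read peak of the region held 837 in the Tmprss15-led, 599 in the Tmeff2-led, 621 in the Nt5e-led, 335 in the Rbp2-led and 385 in the Slc10a2-led cluster. Mitochondrial UMIs made up 85.9%, 65.4%, 85.0%, 70.2% and 65.0% of UMIs in these clusters, in the same order, and median nuclear UMIs per cell ranged from 700 to 2216. The part of these shares and depths in the differences was not tested.

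**Figure D5:**
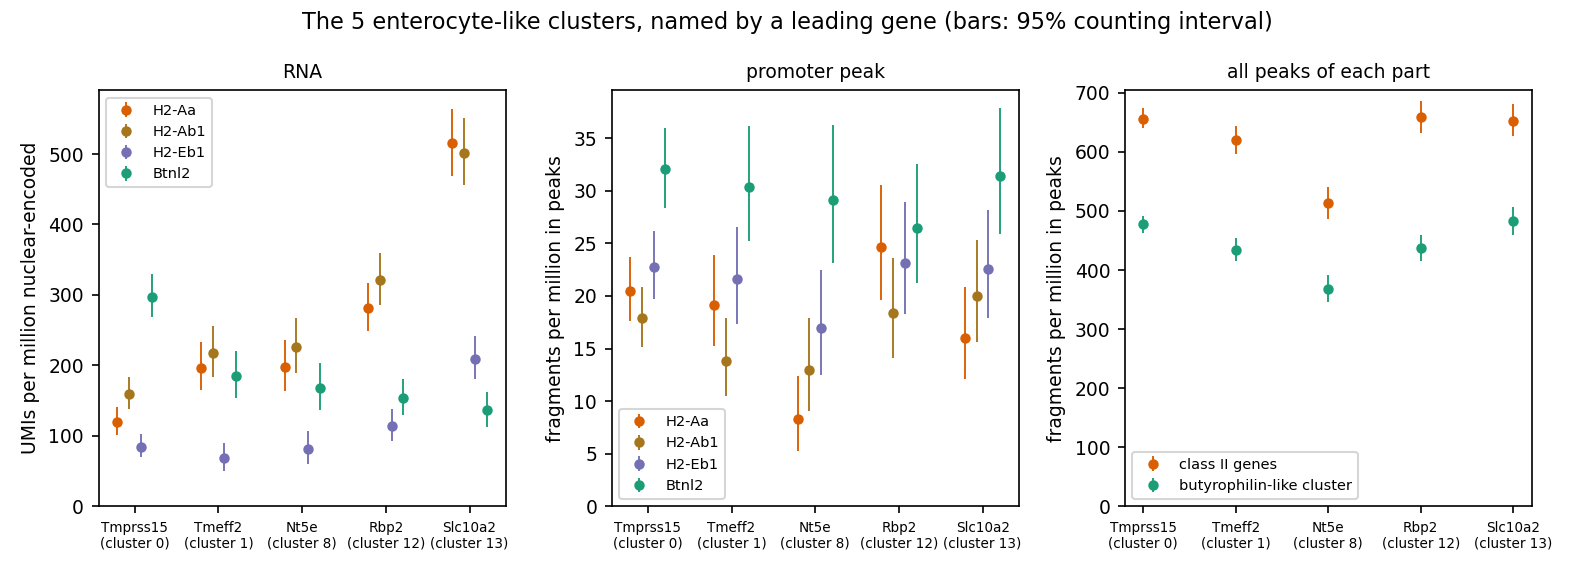
RNA (left, CPM) and start peaks (middle, FPM) of H2-Aa, H2-Ab1, H2-Eb1 and Btnl2, and the sum over all peaks of the class II gene stretch and of the Btnl stretch (right, FPM), in the 5 enterocyte-like clusters (horizontal axis), with 95% counting intervals as bars. H2-Aa RNA ranges from 120 to 515 over the clusters, while accessibility over the stretch of class II genes lies between 514 and 659.

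Genes outside the region that serve the same pathways moved with the chains in part. Of 9 tested genes of class II presentation, 2 were higher and 6 lower in crypt progenitor-like cells. With UMIs of all kinds as the scale, 3 were higher and 3 lower. Of all nuclear genes tested there, 43.7% were higher and 19.9% lower on the nuclear scale. With UMIs of all kinds the median of all tested genes stood at 1.47, and shares called were not counted. Cd74, the invariant chain, went from 735 to 224 CPM (-1.72), and Ciita, the class II co-activator, from 56.6 to 18.5 (-1.61). The listed Rfx genes did not move together. Rfx5 and Rfxap were the 2 higher genes (0.93 and 0.59), and Rfxank was lower (-0.93). The median of all tested genes stood at 0.48 on this nuclear scale. In the enterocyte-like clusters Cd74 ran from 435 in the Tmprss15-led to 1301 in the Slc10a2-led cluster, while Ciita stood at 71.8 and 62.3 in these 2 and at 6.59 in the Nt5e-led cluster. Of 10 class I presentation genes 1 was higher and 3 were lower (6 and 0 on the scale of UMIs of all kinds). The higher one was Erap1, from 85.0 to 162 (0.93). Among the lower ones was B2m, the light chain of class I, from 683 to 237 (-1.53). Of 11 interferon gamma signalling genes 0 were higher and 7 lower (3 and 2 on that scale), with Irf7 from 38.5 to 5.83 (-2.72) and Jak2 from 464 to 131 (-1.83). Markers of immune cells were scarce: of 9 myeloid and dendritic markers 3 were seen in enterocyte-like cells, at 11 CPM in sum against 6.27 in crypt progenitor-like and 7.92 in goblet-like cells, with Flt3, Itgax, Xcr1, Lyz2, Csf1r and C1qa at 0. Among them Mrc1, the mannose receptor of macrophages, moved with the class II RNA, at 7.10 CPM in enterocyte-like against 0.747 in crypt progenitor-like and 2.03 in goblet-like cells, both called lower. Itgam did not, at 3.67, 5.38 and 5.49 in these classes. Both were named after their values were seen, and their part in the class II RNA was not tested. B cell markers summed to 0.917 in enterocyte-like cells, and T or intraepithelial lymphocyte markers to 9.39 there, 12.4 in crypt progenitor-like, 14 in goblet-like and 42.1 in Paneth-like cells.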

How the data were processed

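One RNA library and 1 ATAC library of the same cells were analysed. The deposited values are whole-number counts per gene and per peak and barcode, made with Cell Ranger ARC 2.0.2 on mm10, per the submitters' processing notes; UMIs for genes and, as 87.6% of the peak values were even, cut sites for peaks, which were therefore halved and rounded up to fragments. Barcodes with at least 500 UMIs, 300 genes and 1000 peak counts were kept (9872 of 12363). RNA was clustered with scanpy 1.11.5 (1500 variable genes, 30 components, 15 neighbours) without 462 mitochondrial, window and listed genes. Scrublet marked 0 cells at its threshold of 0.542 and so did not work; no doublets were removed. Counts were summed per class and compared as ratios with exact 95% binomial intervals (scipy 1.17.1); the calling was tested on simulated data. Depth per class ran from 1084185 (tuft-like) to 28635146 fragments (crypt progenitor-like).

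Named genes were taken from those of the region lists with at least 20 UMIs. They are given in most detail for the antigen-presenting and Btnl lists and otherwise by count with the largest 4 changes. Added to them were the 5 other genes and 8 peaks with the largest ratios each way. A gene's peak was the most read one within 1000 bases of its start. Outside lists are given by count with some of their larger changes, not all of the largest 4. The members and lists were chosen with earlier results of these data known. Alternatives tried were the promoter-peak scale, UMIs of all kinds, a 2-fold threshold, cells without high mitochondrial share or doublet score, other clusterings, and, added after seeing the data, sums without the most read peak.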

Additional observations from a re-analysis of the deposited data

How the results depend on the processing

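The promoter-peak scale, UMIs of all kinds, the cell filters and the other clusterings, each where it was run, left the class II section's accessibility and the class II chain RNA lower than in enterocyte-like cells. No paired analysis was possible because there was 1 tissue sample and no result came from a test between samples. On the promoter-peak scale the class II section's accessibility difference from enterocyte-like cells was -0.45 in crypt progenitor-like, -0.47 in goblet-like and -0.61 in Paneth-like cells. On the scale of UMIs of all kinds class II chain RNA differed by -1.33, -0.86 and -1.03. At a threshold of 2-fold, 96 peaks of the region were higher in crypt progenitor-like cells, and 67 were higher and 62 lower in goblet-like cells. Shares of all peaks were not counted at that threshold. Without cells above 80% mitochondrial UMIs the accessibility difference was -0.33 in crypt progenitor-like cells, and the RNA difference -2.47 there and -2.12 in goblet-like cells. Without the 8% of cells with the highest doublet scores accessibility differed by -0.33 and -0.38 in crypt progenitor-like and goblet-like cells, and RNA by -2.51, -2.32 and -3.10 in crypt progenitor-like, goblet-like and Paneth-like cells. At a clustering resolution of 0.5 RNA differed by -2.44 and -2.10 in the first 2 classes. With classes drawn from ATAC clusters RNA differed by -1.90, -1.80 and -2.13, and accessibility in Paneth-like cells by -0.67. Without the most read peak, an alternative added after seeing the data, the region's accessibility difference turned to 0.013 in crypt progenitor-like and 0.0042 in goblet-like cells. The cause of these shifts was not tested. Depth limits Paneth-like, enteroendocrine-like and tuft-like cells most, and counting intervals do not cover the spread between mice.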
